A study of Homo sapiens with 16 samples.

Results

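Amino acid transporters of the plasma membrane were followed in MCF10A cells over 45 hours of treatment with an inhibitor of HER2 kinase. The set was 8 genes: SLC7A5, SLC3A2, SLC7A11, SLC7A1, SLC1A4, SLC1A5, SLC38A1 and SLC38A2. Every probe whose file symbol was one of these genes was kept and treated separately, which gave 9 probes among the 20589 on the array, with 2 for SLC3A2. MCF10A is a nontransformed human breast epithelial cell line that was grown here in serum-free medium with insulin, EGF and hydrocortisone. CP724,714 was added at 1 µM, and RNA from parallel cultures was collected every 3 hours and hybridized to 1 Illumina human Ref8v2 array per time point, 16 in all. The 0 h culture is titled as treated with CP724,714, with a treatment time of 0 hours, and is taken here as untreated. All later cultures carried the inhibitor. The study treated the cells to find genes that depend on HER2 signaling over time. The medium was changed when treatment began and no untreated time course was analysed here, so the inhibitor, the new medium and the time in culture cannot be told apart.

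Amino acids cannot cross the membrane unaided, and each transporter carries its own range of them. SLC7A5 (LAT1) exchanges large neutral amino acids such as leucine, and SLC7A11 (xCT) takes up cystine in exchange for glutamate. Both are light chains that reach the surface only when bound to the glycoprotein SLC3A2 (4F2hc, CD98). SLC7A1 (CAT1) carries arginine and lysine, SLC1A4 (ASCT1) and SLC1A5 (ASCT2) exchange small neutral amino acids, glutamine among them for SLC1A5, and SLC38A1 (SNAT1) and SLC38A2 (SNAT2) import neutral amino acids with sodium. Cells short of amino acids induce several of these genes through the transcription factor ATF4, and SLC7A11 is also known as a target of NRF2, a factor of the oxidative stress response.

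Promoter sequences were read because several of the 8 genes fell. The RefSeq table (GRCh38.p14) held 13 promoters for 7 of the 8 genes, and SLC7A11 was not matched. Each promoter ran from 250 bases before to 50 bases after a transcription start. Both strands were searched for the amino acid response core TGATGNAA, the antioxidant response core TGACNNNGC and the E-box CACGTG, where N is any base. TGATGNAA was present in 5 of the 13 promoters, belonging to 5 of the 7 genes, and in 3.62% of all 35116 promoters in the table. TGACNNNGC was present in 4 of the 13 and in 13.3% of all, and CACGTG in 2 of the 13 and in 7.26% of all. Matches of different motifs did not overlap in any of the 13 promoters. These are descriptions of letters and were not tested. The stretches of 30 bases around the TGATGNAA matches, and around all matches in SLC7A5 and SLC3A2, are printed from 5′ to 3′ along the gene's strand, with the match in capitals.
SLC3A2 TGATGNAA on the opposite strand, chr11:62881719-62881748, plus strand: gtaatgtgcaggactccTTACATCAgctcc
SLC7A1 TGATGNAA, chr13:29595663-29595692, minus strand: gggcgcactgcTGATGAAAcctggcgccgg
SLC1A4 TGATGNAA on the opposite strand, chr2:64989381-64989410, plus strand: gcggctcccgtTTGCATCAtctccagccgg
SLC1A5 TGATGNAA, chr19:46784893-46784922, minus strand: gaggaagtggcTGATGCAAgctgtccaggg
SLC38A1 TGATGNAA, chr12:46266502-46266531, minus strand: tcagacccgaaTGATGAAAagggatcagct
SLC3A2 TGACNNNGC, chr11:62881652-62881681, plus strand: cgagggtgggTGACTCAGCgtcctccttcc
SLC7A5 TGACNNNGC, chr16:87869490-87869519, minus strand: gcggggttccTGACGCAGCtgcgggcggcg
SLC7A5 CACGTG, chr16:87869620-87869649, minus strand: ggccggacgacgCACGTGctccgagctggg

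SLC3A2 and SLC1A5 had 3 promoters each and SLC1A4 and SLC38A1 had 2 each, and TGATGNAA lay in 1 of them. Distances are from the transcription start of the promoter with the match, which need not be the gene's main start. The TGATGNAA match began 38 bases into the transcript of SLC3A2 and 8 bases into that of SLC7A1. It began 7 bases before the start in SLC1A4, 4 bases before it in SLC38A1 and 97 bases before it in SLC1A5. SLC38A2 had no match to any of the 3 motifs in its 1 promoter. Genes with a TGATGNAA match included SLC38A1, which passed no test described below.

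Array medians lay between 210 and 254 on the deposited linear scale, and 10325 to 10889 rows per array were above background at a detection p under 0.05. The epithelial markers KRT5, KRT6A, KRT17, KRT18, CDH1 and EPCAM were above background on all 16 arrays, and KRT14, another basal keratin, on 1. The fibroblast markers COL1A1 and COL1A2 were above background on 0 arrays and the probes for the blood cell marker PTPRC on 0 to 5, whereas CD68 and PECAM1, markers of macrophages and endothelium, were above it on 16 and 15. The summed intensity of the 7 probes for these other cell types was 1848 to 2311 on the arrays of 0 to 9 h and 2247 to 2643 on those of 36 to 45 h, and its part in the results was not tested. All samples are cultures of 1 cell line, and the source of the CD68 and PECAM1 signal was not tested. A change in the share of some cells and a change in RNA per cell cannot be told apart in such bulk samples.

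All levels below are log2 of the background-corrected, quantile-normalized intensity, so a difference of 1 is a doubling or a halving. Levels are compared within a probe, since each probe has its own brightness, and where SLC7A5 is set against SLC3A2 only the change of their difference over time is read. Time dependence was tested with a smooth curve over the 16 arrays. Differences were tested between 4 consecutive windows of 4 time points and, for the first hours, between pairs of time points, in each case with limma. A difference passed where its adjusted p was under 0.05, the adjustment being over the 11957 probes tested. The time points of a window are not replicates, and the SD given with a window holds the change within it.

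Of the 9 probes, 8 were bright enough to test. SLC7A11 passed the filter on detection only through the arrays of 0 to 9 h, on which it was high. No test is therefore given for it. The counts below cover the other 7 probes, except those on how the results depend on the processing. The values of all 9 by array are plotted with the window means, followed by the tests.

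**Figure D1:**
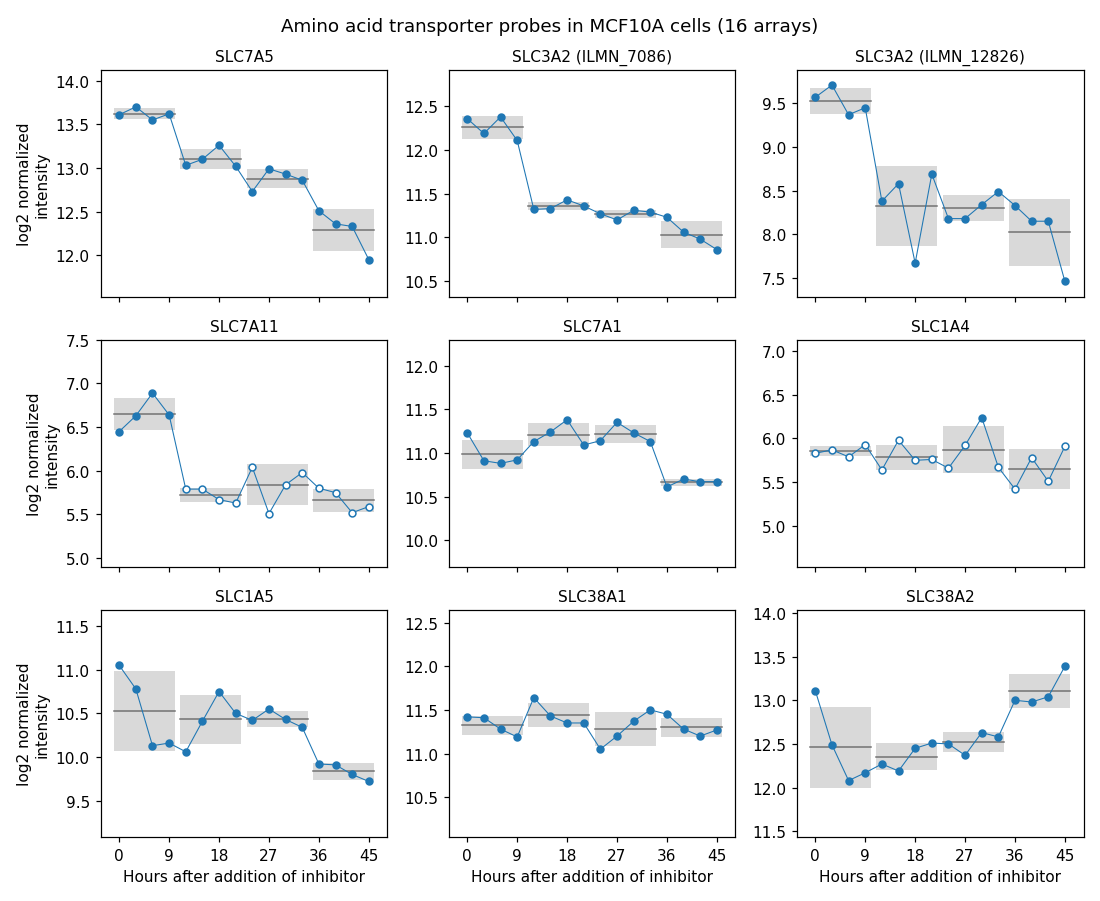
Log2 normalized intensity (vertical axis, a span of the same size in every panel) against hours after addition of inhibitor for the 9 probes, 1 array per point. Filled points were above background (detection p under 0.05) and open points were not; horizontal lines and grey bands are the mean and SD of each window of 4 time points. SLC7A5, SLC3A2 and SLC7A11 drop between 9 and 12 h, whereas SLC38A2 ends above its level of 3 to 33 h.

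Time dependence was detected for 6 of these 7 probes, against 54.6% of all probes tested, and SLC38A1 was the exception. From the first window (0 to 9 h) to the last (36 to 45 h), 5 probes fell and 1 rose. All probes tested gave calls at 31.2%, with 16.2% higher and 15.0% lower. The median difference was -0.69 over the 7 probes and -0.02 over all probes. The 5 probes that fell were those of SLC7A5, SLC3A2 (both), SLC7A1 and SLC1A5, and SLC38A2 rose. The share of all calls that were higher depended on the scaling, 51.8% after quantile normalization and 73.1% after scaling each array to its median.

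**Figure D2:**
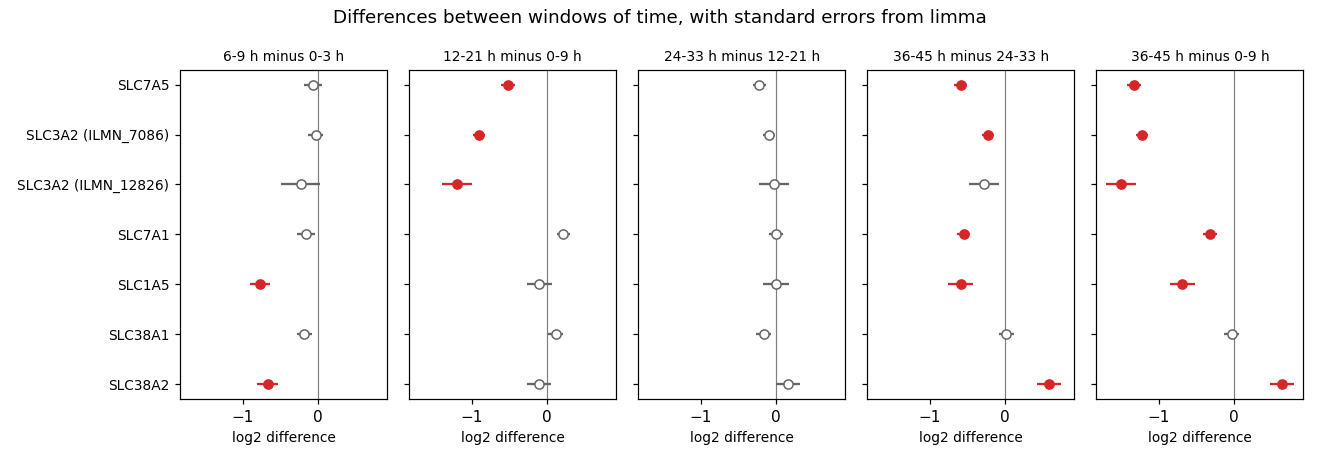
Difference in log2 intensity (horizontal axis, later minus earlier) with its standard error from limma for 7 probes in 5 comparisons of time. Red filled points passed an adjusted p under 0.05 and open points did not. No point is red from 12 to 21 h to 24 to 33 h, and SLC38A2 is the single probe to the right of 0 among the red points.

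SLC7A5 was lower at the end of the series than at the start. The gene lies on chromosome 16 (87830023 to 87869507). Its probe, ILMN_25446, read 13.61, 13.70, 13.55 and 13.62 at 0, 3, 6 and 9 h and 13.03, 13.10, 13.26 and 13.02 at 12, 15, 18 and 21 h. It read 12.73, 12.99, 12.93 and 12.86 at 24, 27, 30 and 33 h and 12.51, 12.36, 12.33 and 11.95 at 36, 39, 42 and 45 h. The 4 windows did not overlap, and each stood below the one before it. From the first to the last window the level fell by 1.33 (SE 0.09, adjusted p = 4.5e-08), a 2.51-fold decrease. It fell by 0.52 (SE 0.09, adjusted p = 0.00057) by 12 to 21 h and by another 0.59 (SE 0.09, adjusted p = 9.9e-05) after 24 to 33 h. Between these, the difference of -0.22 had an unadjusted p of 0.029 and did not pass over all probes (adjusted p = 0.94).

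SLC3A2, the partner of both SLC7A5 and SLC7A11, dropped to a lower level between 9 and 12 h. It lies on chromosome 11 (62856109 to 62888860) and had 2 probes. The brighter, ILMN_7086, read 12.36, 12.19, 12.38 and 12.11 at 0 to 9 h and 11.32, 11.33, 11.43 and 11.36 at 12 to 21 h. It then read 11.27, 11.20, 11.31 and 11.29 at 24 to 33 h and 11.23, 11.06, 10.98 and 10.86 at 36 to 45 h. All later arrays lay below those of the first window, and the step from 9 to 12 h alone was -0.79. The level fell by 0.90 (SE 0.08, adjusted p = 9.2e-07) to 12 to 21 h and by 1.23 (SE 0.08, adjusted p = 2.5e-08) over the series, a 2.34-fold decrease. A further fall of 0.23 after 24 to 33 h passed (adjusted p = 0.03) but was lost under cyclic loess, without the detection filter, and on leaving out the 24, 30, 33, 39, 42 or 45 h array, with adjusted p between 0.051 and 0.11.

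The dimmer SLC3A2 probe, ILMN_12826, moved the same way with more scatter. It read 9.57, 9.71, 9.37 and 9.45 at 0 to 9 h and 8.38, 8.58, 7.67 and 8.69 at 12 to 21 h. It read 8.18, 8.18, 8.34 and 8.49 at 24 to 33 h and 8.33, 8.15, 8.15 and 7.46 at 36 to 45 h. Its first window did not overlap any later one, and the arrays of 18 and 45 h were its lowest. It fell by 1.20 (adjusted p = 0.00034) to 12 to 21 h and by 1.51 (adjusted p = 2.8e-05) over the series. The courses of the 2 probes had a Pearson r of 0.90 over the 16 arrays.

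SLC7A11 was above background only on the 4 arrays of 0 to 9 h. The gene lies on chromosome 4 (138164097 to 138242349). Its probe, ILMN_138832, read 6.45, 6.63, 6.89 and 6.64 on those arrays, and 5.51 to 6.04 on the 12 later ones. These groups did not overlap, and the later readings stand for an upper limit, not for a level. Against the lowest signal that counted as detected on the same arrays, the first window was at least 1.41-fold higher than 12 to 21 h, at least 1.46-fold higher than 24 to 33 h and at least 1.48-fold higher than 36 to 45 h. The measured means were 6.65 and 5.66 in the first and last windows. These bounds and means hold on the background-corrected scale. Without that correction the last window differed from the first by -0.47.

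SLC7A5 and its partner were also compared with each other on the same array, through the brighter SLC3A2 probe. SLC7A5 relative to SLC3A2 was higher by 0.38 at 12 to 21 h than at 0 to 9 h, and it differed by -0.35 at 36 to 45 h from its level at 24 to 33 h. Each of these differences had p = 0.029 in a two-sided exact permutation test of 4 against 4 arrays, the smallest this test can give. The test treats the arrays as exchangeable, which consecutive time points of a series need not be. Over the 4 comparisons of windows made, the adjusted p was 0.058 for both, so neither passed, and the comparison was chosen after the values were seen. Over the whole series the relative level differed by -0.10 (exact permutation p = 0.34).

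SLC7A1, the arginine and lysine carrier, was lowest in the last window. It lies on chromosome 13 (29509414 to 29595688). Its probe, ILMN_22619, read 11.23, 10.91, 10.88 and 10.92 at 0 to 9 h, 11.13, 11.24, 11.38 and 11.09 at 12 to 21 h, and 11.14, 11.35, 11.23 and 11.13 at 24 to 33 h. It then read 10.61, 10.70, 10.67 and 10.67 at 36 to 45 h. The last window lay below every other array, and the 0 h array stood apart from the other three of the first. The level fell by 0.55 (SE 0.09, adjusted p = 9.7e-05) from 24 to 33 h to 36 to 45 h, a 1.46-fold decrease. Over the whole series it fell by 0.32 (adjusted p = 0.0096), but with median scaling the difference was -0.18 (adjusted p = 0.19). From the first to the second window the difference of 0.22 did not pass (adjusted p = 0.063), and it passed with median scaling (0.41, adjusted p = 0.0041), without the 0 h array (0.31, adjusted p = 0.0075) and without the 21 h array (0.26, adjusted p = 0.049).

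SLC1A5, the exchanger of glutamine, fell early, was higher again by 18 h, and fell after 33 h. It lies on chromosome 19 (46774883 to 46788594). Its probe, ILMN_29291, read 11.05, 10.78, 10.13 and 10.16 at 0 to 9 h and 10.06, 10.41, 10.75 and 10.50 at 12 to 21 h. It read 10.42, 10.55, 10.43 and 10.34 at 24 to 33 h and 9.92, 9.91, 9.80 and 9.72 at 36 to 45 h. The last 4 arrays were the lowest of the series, and the 0 h array was the highest. From 0 and 3 h to 6 and 9 h the level fell by 0.77 (SE 0.13, adjusted p = 0.00037), a 1.71-fold decrease. It fell by 0.59 (SE 0.17, adjusted p = 0.012) from 24 to 33 h to 36 to 45 h, and by 0.69 (adjusted p = 0.0056) from the first to the last window. The values of 6 to 21 h are given as a description, since that return was not tested.

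SLC1A4, the close relative of SLC1A5, could not be followed. It lies on chromosome 2 (64988479 to 65023865). Its probe, ILMN_12585, read 5.42 to 6.24 and was above background at 30 h alone, on 1 of 16 arrays. It was left out of the tests, so nothing can be said on its change.

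SLC38A2 was the one member with a higher mean in the last window than in the first. It lies on chromosome 12 (46358188 to 46372773). Its probe, ILMN_10001, read 13.11, 12.49, 12.08 and 12.17 at 0 to 9 h and 12.27, 12.19, 12.45 and 12.51 at 12 to 21 h. It read 12.50, 12.37, 12.63 and 12.58 at 24 to 33 h and 13.00, 12.98, 13.04 and 13.39 at 36 to 45 h. The last window lay above every array from 3 to 33 h, but the 0 h array overlapped it. The level rose by 0.58 (SE 0.16, adjusted p = 0.0088) from 24 to 33 h to 36 to 45 h, a 1.50-fold increase, and with median scaling the rise was 0.41 and did not pass (adjusted p = 0.058). From the mean of the first window to that of the last it rose by 0.64 (SE 0.16, adjusted p = 0.0061).

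Before that SLC38A2 had fallen, by 0.67 (SE 0.14, adjusted p = 0.0025) from 0 and 3 h to 6 and 9 h. This fall was -0.36 without the 0 h array and -0.98 without the 3 h array, and passed in both cases. Fitted on those 4 arrays alone it did not pass (adjusted p = 0.07).

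SLC38A1, which lies near SLC38A2 on chromosome 12 (46183063 to 46269043) and carries an overlapping range of amino acids, showed no detected change. Its probe, ILMN_5532, read 11.42, 11.41, 11.28 and 11.19 at 0 to 9 h and 11.64, 11.43, 11.35 and 11.35 at 12 to 21 h. It read 11.05, 11.20, 11.37 and 11.50 at 24 to 33 h and 11.45, 11.28, 11.20 and 11.27 at 36 to 45 h. All 4 windows overlapped. The difference from the first to the last window was -0.03 (SE 0.10, adjusted p = 0.86), and time dependence had an adjusted p of 0.87.

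The times at which members moved can be read from the comparisons. From 0 and 3 h to 6 and 9 h, 2 of the 7 probes fell (SLC1A5 and SLC38A2), against 24.7% of all probes called and 11.5% called lower. From 0 to 9 h to 12 to 21 h, 3 fell (SLC7A5 and both SLC3A2), against 29.5% called and 14.4% lower. From 12 to 21 h to 24 to 33 h limma called 0 of the 7, with 1 at an unadjusted p under 0.05, and 0.0251% of all probes. From 24 to 33 h to 36 to 45 h, 4 fell (SLC7A5, the brighter SLC3A2 probe, SLC7A1 and SLC1A5) and SLC38A2 rose, against 38.0% called, 19.3% higher and 18.7% lower. These comparisons share arrays and are not independent of each other. With median scaling the share of all calls that were higher went from 53.5% to 64.0% in the first of them, from 51.2% to 73.1% in the second and from 50.8% to 37.0% in the last.

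The negative control level of the arrays was 188 to 199 on the arrays of 0 to 21 h and 166 to 185 on those of 24 to 45 h. When the step from 21 to 24 h was left out of the difference between the first and last windows, the probes of SLC7A5 and SLC3A2 still passed. SLC7A1 (-0.32, adjusted p = 0.094), SLC1A5 (-0.69, adjusted p = 0.07) and SLC38A2 (0.48, adjusted p = 0.19) no longer passed. This difference has a larger standard error, and the alternative was chosen after seeing the data.

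**Figure D3:**
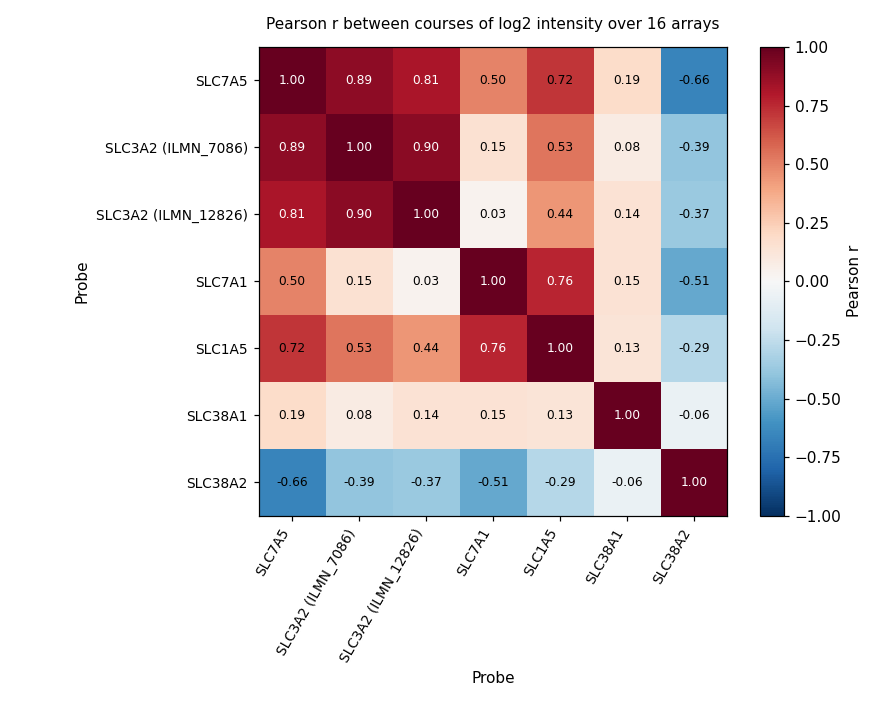
Pearson r between the courses of 7 probes over the 16 arrays, as a description with no test (both axes list the probes, colour and numbers give r). SLC7A5 and both SLC3A2 probes form a block with r of 0.81 to 0.90, and SLC38A2 has r of -0.66 with SLC7A5.

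Over the 16 arrays SLC7A5 had r of 0.89 with the brighter SLC3A2 probe and 0.81 with the dimmer one. SLC7A11 was left out, because 12 of its 16 values were not above background. SLC7A1 and SLC1A5 were alike at r of 0.76, and SLC1A5 and SLC7A5 at 0.72. SLC38A2 ran against SLC7A5 (r = -0.66) and SLC7A1 (r = -0.51). The time points are a series and share its trend, so these values describe the courses and have no p.

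Across all probes tested, the course most like that of SLC7A5 was that of WARS (WARS1), the tryptophanyl-tRNA synthetase (r = 0.953). The nearest to the brighter SLC3A2 probe was FLJ20625 (r = 0.97), and to SLC7A1 the mitochondrial scaffold protein PHB (PHB1, r = 0.961). The nearest to SLC1A5 was MRPL49 (r = 0.947), a mitochondrial ribosomal protein, and to SLC38A2 KIAA0831 (ATG14, r = 0.971), an autophagy gene. For SLC38A1 the nearest was ZNF503, and at r of 0.79 it was the least alike of these 6 pairs. Each was the highest of 11957 values, from which nothing on shared control can be read.

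Other genes of amino acid supply were compared with the 8. Of 27 other plasma membrane amino acid transporters, 12 were measured by 14 tested probes, and from the first to the last window 2 of these probes rose and 3 fell, with a median of -0.06. These calls are 35.7% of the 14, near the 31.2% of all probes. SLC1A3, a glutamate carrier, rose by 1.13 (adjusted p = 0.000171). SLC36A1, which carries amino acids with protons, fell by 1.06 (adjusted p = 4.22e-05). The probes of SLC6A9, the glycine carrier GLYT1, disagreed. ILMN_8399 fell by 0.82 (adjusted p = 0.0214) and ILMN_13195 differed by -0.03 (adjusted p = 0.93). The fall was lost without the 0, 3 or 39 h array and in a fit of the compared arrays alone.

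Genes of the ATF4 and amino acid starvation response fell in the first hours. Of 13 tested probes, 9 fell from 0 and 3 h to 6 and 9 h and 0 rose, with a median of -0.76 against -0.01 over all probes, of which 24.7% were called and 11.5% fell. In a fit of those 4 arrays alone 5 of the 13 passed, and DDIT3, EIF2AK3, ASNS and ATF5 did not. TRIB3, a pseudokinase induced by stress, read 12.83, 12.91, 11.42 and 11.26 at 0, 3, 6 and 9 h and fell by 1.54 (adjusted p = 1.28e-07). PPP1R15A, which restores translation, read 12.64, 12.30, 10.82 and 10.80 and fell by 1.66 (adjusted p = 6.71e-07). In both, the arrays of 6 and 9 h lay below those of 0 and 3 h, as they did for SLC1A5 and SLC38A2.

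ATF4 itself fell by 0.76 (adjusted p = 0.000131), CEBPB by 0.72, CEBPG by 0.97 and ATF5 by 0.42, all of them bZIP transcription factors as ATF4 is. ASNS, the asparagine synthetase, fell by 0.38 (adjusted p = 0.0405) and EIF2AK3, the kinase PERK, by 0.93 (adjusted p = 0.0135). ASNS was lost without any 1 of the 0, 3, 9, 12 and 15 h arrays and EIF2AK3 without the 0 or the 6 h array. DDIT3 (CHOP) fell by 2.11 (adjusted p = 0.0064), a value that rests on the 0 h array, since it was -0.72 without that array and -3.50 without the 3 h array. Over the same 4 arrays SLC7A5 read between 13.55 and 13.70, the brighter SLC3A2 probe between 12.11 and 12.38 and SLC7A11 between 6.45 and 6.89.

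From the first to the last window, 1 of the 13 probes of the ATF4 list was called, that of ASNS, which fell by 1.25 (SE 0.13, adjusted p = 1.78e-06), and the list's median difference was -0.18. The number called in either direction was 2 with median scaling, and 5, 2, 3 and 3 without the 0, 3, 6 or 9 h array. Over all probes, more were called than in the main fit with median scaling and without the 0 or 9 h array. Fewer of all probes were called without the 3 or 6 h array. The counts of the list were not tested against these changes. Among 11 genes of glutathione synthesis and NRF2 targets, 2 rose and 1 fell. These are 27.3% of the 11 against 31.2% of all probes, and 0 passed without the step from 21 to 24 h. GCLC, the catalytic subunit of glutamate-cysteine ligase, rose by 0.52 (adjusted p = 0.0116), and HMOX1, heme oxygenase 1, fell by 2.30 (adjusted p = 0.00658). HMOX1 read 10.69, 10.83, 8.18 and 6.79 at 0, 3, 6 and 9 h, so that it had reached its mean of the last window, 6.82, by 9 h. Its difference was -1.73 without the 3 h array and -3.08 without the 9 h array, and it did not pass in a fit of the compared arrays alone (adjusted p = 0.057). NQO1, a quinone reductase, rose by 0.20 with an adjusted p of 0.0499, which was lost in most alternatives. In the first hours more of this list moved. From 0 and 3 h to 6 and 9 h, 5 of the 11 rose and 2 fell. These are 63.6%, against 24.7% of all probes called, 13.2% higher and 11.5% lower. That early count was not run under the alternatives. SLC7A11, the cystine carrier named above as an NRF2 target, is not part of this list, and a link between its course and the list was not tested.

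Among 13 probes for glutamine use and amino acid sensing by mTORC1, 2 rose and 2 fell from the first to the last window. These are 30.8% of the 13, against 31.2% of all probes. The 3 largest differences were in RRAGB, a Rag GTPase, which rose by 0.84 (adjusted p = 3e-04), GLUD1, glutamate dehydrogenase, which rose by 0.67 (adjusted p = 3.07e-06), and RRAGA, which fell by 0.25 (adjusted p = 0.013). RRAGA did not pass with median scaling (-0.15, adjusted p = 0.15), and without the step from 21 to 24 h neither RRAGA (adjusted p = 0.061) nor RRAGB (adjusted p = 0.064) did. Between neighboring windows more of the 13 probes moved. From 0 to 9 h to 12 to 21 h, 1 rose and 7 fell, 61.5% against 29.5% of all probes. From 24 to 33 h to 36 to 45 h, 8 rose and 2 fell, 76.9% against 38.0% of all probes. Among those that rose were ILMN_25881 and ILMN_26367, which share the gene GLUL. ILMN_25881 was above background on 1, 0, 0 and 3 arrays of the 4 windows, so it passed the filter on detection only through its last window. The 2 counts between neighboring windows were not run under the alternatives. The lists and the transporters share no probes, and no test compared them with each other.

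**Figure D4:**
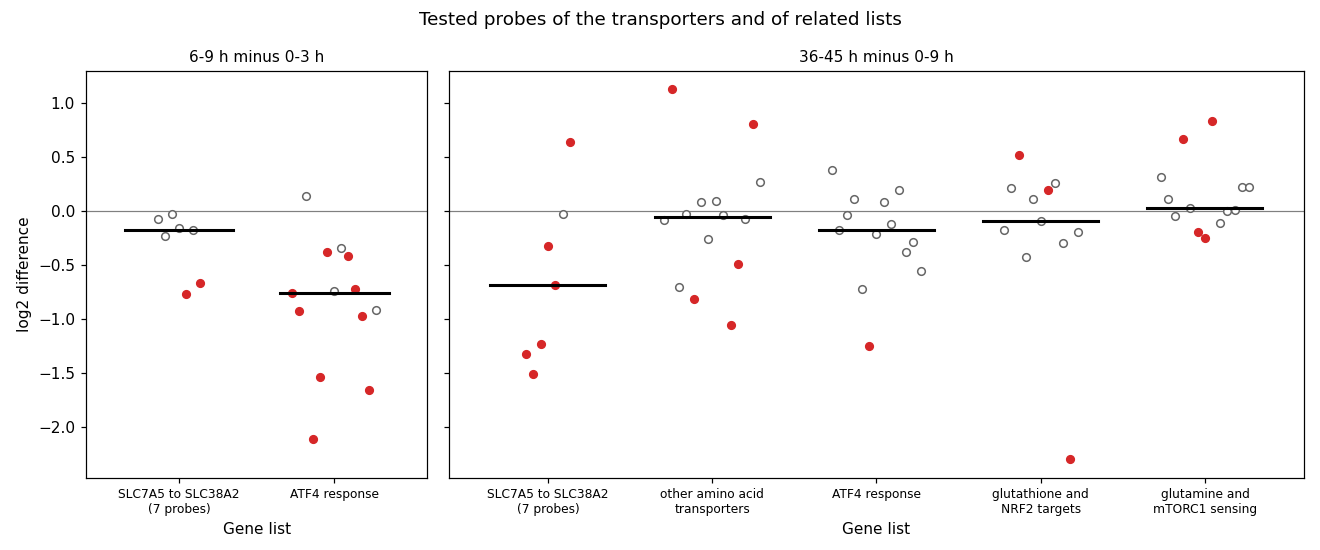
Log2 difference (vertical axis, later minus earlier) of each tested probe of the transporters, SLC7A11 left out, and of related gene lists, left for 6 and 9 h against 0 and 3 h and right for 36 to 45 h against 0 to 9 h. Red filled points passed an adjusted p under 0.05 and black lines are medians. On the left 9 of 13 probes of the ATF4 list are red and below 0, and on the right the median of the transporters is -0.69 and those of the other lists lie between -0.18 and 0.03.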

How the data were processed

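The authors deposited 1 linear intensity value and 1 detection p-value per row and array, not normalized between arrays. Their methods name quality control and quantile normalization. Software for these steps and the array's genome build are not given in the sources used here. Here limma 3.58.1 (R 4.3.3) was used for normexp correction with an offset of 16, against a negative control level read back from the detection p-values, then for quantile normalization and the log2 scale. The offset compresses dim probes. Tests covered the 11957 probes detected (p under 0.05) on 3 or more of the 16 arrays, with limma's trend option and Benjamini-Hochberg adjustment. The curve was a natural cubic spline with 3 degrees of freedom. Windows were fitted in 1 model of 4, pairs of time points in 1 model of 8. The limma fits were tested on simulated data with planted changes and noise independent between arrays. The steps before the fits were not tested in this way.

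Arrays are grouped by the hour in their labels. Each is a separate culture, so p-values rest on the spread between neighboring hours, and the number of arrays limits the precision. Where a dim window had 0 detections, the fold is a bound against the lowest detected single-probe signal of each array. Symbols are the file's, with older ones matched through the RefSeq table. Named genes are all member probes, the 3 largest called differences of each other list, ATF4 list genes called at 6 and 9 h, and each member's nearest course, SLC7A11 excepted. The members, lists and tests were chosen with earlier results of these data known. Figures were drawn with matplotlib 3.10.9.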

Additional observations from a re-analysis of the deposited data

Results flagged for a closer look

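In 36 windows of 4 arrays, 9 probes in 4 windows each, the highest and lowest values were compared with the others by Dixon's ratio of gap to range. By chance about 1 in 20 windows passes its critical value, and 2 did. SLC7A1 at 0 h (11.23) stood above 3, 6 and 9 h with a ratio of 0.882. SLC38A2 at 45 h (13.39) stood above 36, 39 and 42 h with a ratio of 0.852. The time points of a window are not replicates, and the cause was not tested.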

How the results depend on the processing

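Offset, background, normalization, filter, prior variance, curve and each left-out array were varied. The probes of SLC7A5 and SLC3A2 passed from the first to the last window under every alternative run. The counts of transporter probes in this paragraph and the next are over 8 probes and include SLC7A11, which the filter on detection let through only by its first window. Without SLC7A11 the main fits called 6 of 7 probes for time dependence, 6 for the last against the first window and 3 for 12 to 21 h. The shares of all probes called were 54.6%, 31.2% and 29.5%. These shares belong to the main fits. The number of all probes called also changed with the setting, so the counts below cannot be read against these shares. No paired analysis was possible because each time point has 1 array and all carry the same replicate number. Leaving out 1 array gave 7 called transporter probes for time dependence and 7 for the last against the first window. It gave 4 to 5 for 12 to 21 h, 0 for 24 to 33 h, 4 to 5 for the last against the window before it, and 2 for 6 and 9 h.

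In the last against the first window, leaving out 1 array gave 3 to 5 calls in the other transporters (3 without the 39 h array), 1 to 5 in the ATF4 list, 2 to 4 in the NRF2 list and 3 to 6 in the glutamine list. In the first hours it gave 7 to 11 calls in the ATF4 list. Median scaling gave 2 calls in the ATF4 list. A fit of the compared arrays alone gave 3 in the other transporters, 1 in the NRF2 list, and for 6 and 9 h 1 transporter probe (not 2) and 5 in the ATF4 list (not 9). Without the step from 21 to 24 h, calls were 4 transporter probes, 3 other transporters, 0 in the NRF2 list and 1 in the glutamine list. This contrast has a larger standard error by construction. SLC38A1 changed sign, to 0.11 with median scaling (adjusted p = 0.39) and 0.14 without the step (adjusted p = 0.57), and ranged from -0.08 to 0.00 on leaving out 1 array. SLC7A1 lost its time dependence with a straight line (adjusted p = 0.19). DDIT3 was lost with a robust prior (adjusted p = 0.056), and HMOX1 (0.057), EIF2AK3 (0.16), DDIT3 (0.13), ASNS (0.084) and ATF5 (0.073) in a fit of the compared arrays alone. Except where stated, the cause was not tested. Signals at background, as for SLC1A4 and late SLC7A11, limit what can be read from those probes.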
